A study of Arabidopsis thaliana with 24 samples.

Results

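The UDP-glycosyltransferase (UGT) genes of Arabidopsis thaliana were described in roots and rosettes of the mutant rpt2-3a and of Col-0, at deficient and at normal sulfur supply. A feature of the array was taken as a member where the platform's probe-to-gene table gave it exactly 1 gene and that gene's symbol was UGT followed by digits, letters and digits. UGT74B1, UGT74C1, UGT75C1 and UGT79B1 were left out. Of 28583 features, of which 16746 carry exactly 1 gene, 55 were members. They stand for 50 genes of 22 subfamilies, because UGT71B6, UGT73C6, UGT74D1, UGT76E12 and UGT85A4 have 2 features each. All 55 features matched the RefSeq gene table by gene identifier. A further 2 features name both UGT84A1 and the locus AT4G15475 and are not members.

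UGT enzymes move a sugar, most often glucose from UDP-glucose, onto small molecules such as hormones, flavonoids, lignin precursors, defence compounds and foreign chemicals. The sugar usually makes the acceptor more soluble and less active, and many of the products are stored in the vacuole. In a symbol such as UGT76B1 the first number marks the family, the letter the subfamily and the last number the gene. RPT2, for which the mutant is named, is an ATPase subunit of the regulatory particle of the proteasome, the complex that degrades tagged proteins.

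The plants grew in hydroponic culture in days of 8 h light and 16 h darkness. After 5 weeks on complete medium they were moved for 5 days to medium deficient in sulfur (dS) or kept on normal supply (nS). Root groups were rpt2-3a dS, rpt2-3a nS, Col-0 dS and Col-0 nS, and the same 4 groups were taken from rosettes. Each of the 8 groups has 3 arrays, which the series' text calls biological replicates, and whether a replicate was 1 plant or several is not given in the sources used here.

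Values are the deposited expression values, read as log2, and every fold assumes that base. Array medians lay between 4.47 and 4.55 in roots and between 4.03 and 4.14 in rosettes. The organ labels were matched by marker genes: EXPA7, a root hair expansin, averaged 7.66 in roots and 2.18 in rosettes, and RCA, the activase of Rubisco, averaged 3.86 in roots and 10.9 in rosettes. BGLU28, a marker of sulfur deficiency, was higher at dS by 2.11 in Col-0 roots (limma adjusted p = 0.0024). Its sulfur difference did not pass in rpt2-3a roots (0.56, adjusted p = 0.62), Col-0 rosettes (1.43, adjusted p = 0.078) or rpt2-3a rosettes (0.13, adjusted p = 0.9). No feature carries RPT2A or RPT2B as its only gene, so the genotype labels were not checked by the mutated gene. Within groups the UGT features had a median SD of 0.17, against 0.14 for all features. Of the 55 features 39 lay below the array medians in rosettes and 41 in roots, 30 of them in both organs. No measure of detection was used here, so a fold with 1 or both sides this low rests on signal that may be near background.

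Organ was the comparison in which most UGT genes differed. In the limma fit over 24 arrays, 41 of 55 features (74.5%) passed an adjusted p of 0.05 between rpt2-3a roots and rosettes at nS, 18 of them higher in roots and 23 lower, beside 62.5% of all features (42.7% higher, 19.8% lower). At dS 36 passed in rpt2-3a (18 higher, 18 lower), beside 61.7% of all features (41.8% higher, 19.9% lower). In Col-0 40 passed at nS (17 higher, 23 lower), beside 63.4% (43.3% higher, 20.1% lower). At dS 37 passed in Col-0 (19 higher, 18 lower), beside 63.7% (43.9% higher, 19.8% lower). The shares of UGT features and of all features were not tested against each other. In all 4 comparisons 16 UGT features were higher and 17 lower in roots, together 60%, against 50.7% of all features (35% higher and 15.7% lower).

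The balance of higher and lower depends on how the arrays are scaled. As deposited, the median feature was 0.19 higher in roots on the log2 scale, and the median UGT feature was 0.14 lower. With each array centred on its median the values were -0.22 for all features and -0.55 for UGT features, and after quantile normalization 0.01 and -0.34. The split of UGT features that passed in all 4 comparisons was 16 higher and 17 lower as deposited, 15 and 28 after centring, and 15 and 22 after quantile normalization. For all features the higher share of these calls was 69.1%, 41.4% and 55.3% under the same 3 scalings, and for UGT features 48.5%, 34.9% and 40.5%. Under all 3 scalings 15 UGT features stayed higher and 17 stayed lower, and the exception was UGT72E1. In bulk tissue, fewer cells of a type and less RNA per cell cannot be told apart.

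Of the 55 features 15 had all 12 root arrays above all 12 rosette arrays, and another 15 had all root arrays below all rosette arrays. These 54.5% compare with 44.9% of all features, which were 30.9% higher and 14.1% lower in roots. The other 25 UGT features overlapped between the organs, and 11 of the 55 passed in none of the 4 organ comparisons.

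**Figure D1:**
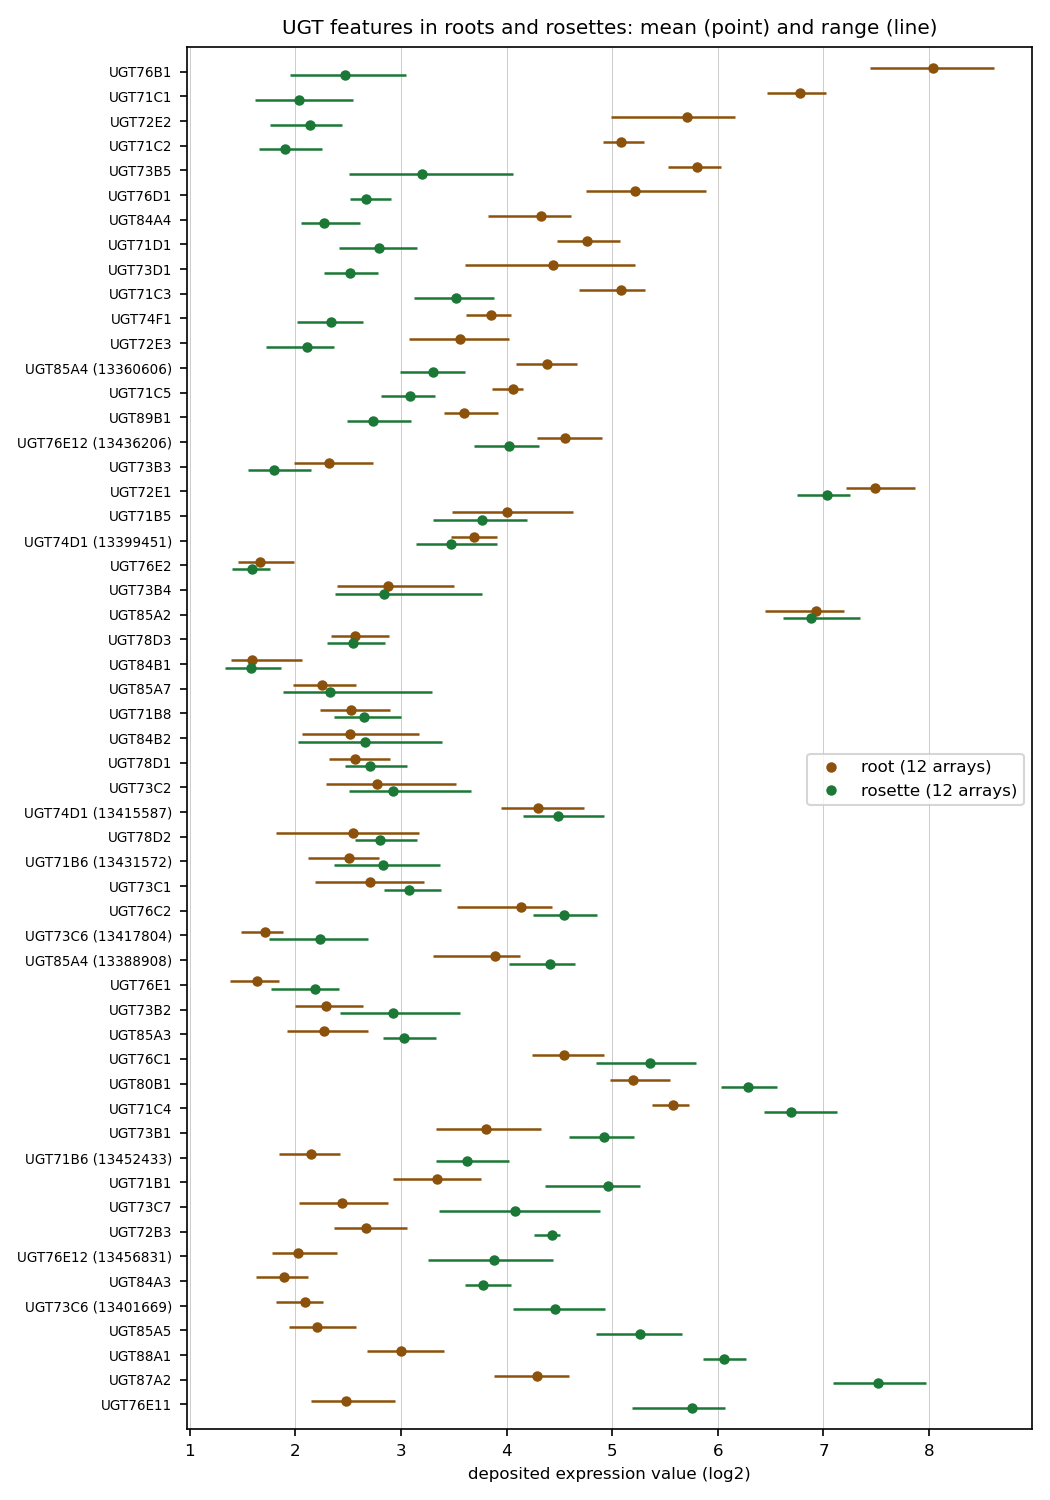
Mean (point) and range (line) of the deposited log2 value of each UGT feature over 12 root arrays (brown) and 12 rosette arrays (green), ordered by the mean difference of root minus rosette. The root and rosette lines part for 15 features at the top and 15 near the bottom, and the 25 others overlap.

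UGT76B1, which glucosylates isoleucic acid, salicylic acid and N-hydroxypipecolic acid and tempers defence, had the highest root excess of the UGT features that passed in all 4 comparisons. Its lowest, median and highest values were 7.44, 8.02 and 8.61 in roots, against 1.95, 2.42 and 3.05 in rosettes. The root minus rosette difference was 5.4 in rpt2-3a nS, 6.19 in rpt2-3a dS, 5.14 in Col-0 nS and 5.54 in Col-0 dS, each with an SE of 0.24. The root groups of UGT76B1 lie far above every rosette array.

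UGT71C1, an enzyme that glucosylates hydroxycinnamates and other phenolics in the test tube, had 6.47, 6.77 and 7.02 as lowest, median and highest value in roots, against 1.62, 1.97 and 2.55 in rosettes, a mean difference of 4.74. Its relative UGT71C2 had 4.91, 5.06 and 5.3 in roots, against 1.66, 1.81 and 2.25 in rosettes, a mean difference of 3.19. UGT72E2, which glucosylates the lignin precursors coniferyl and sinapyl alcohol, had 4.99, 5.72 and 6.16 in roots, against 1.76, 2.13 and 2.44 in rosettes, a mean difference of 3.57. All 3 genes were apart in every root array from every rosette array. UGT73B5, a gene known for its response to pathogens and oxidative stress, had 5.53, 5.87 and 6.03 in roots, against 2.51, 3.23 and 4.06 in rosettes. UGT76D1, which glucosylates dihydroxybenzoic acids made from salicylate, had 4.75, 5.18 and 5.89 in roots, against 2.52, 2.66 and 2.91 in rosettes. Their mean differences were 2.6 and 2.55.

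At the other end, UGT76E11, which can glucosylate flavonoids, had 2.15, 2.48 and 2.94 as lowest, median and highest value in roots, against 5.19, 5.78 and 6.07 in rosettes, a mean difference of -3.27. UGT87A2, a gene that acts on flowering time, had 3.88, 4.33 and 4.59 in roots, against 7.09, 7.47 and 7.97 in rosettes, a mean difference of -3.23. UGT85A5 had 1.94, 2.2 and 2.58 in roots, against 4.85, 5.28 and 5.66 in rosettes. UGT88A1 had 2.68, 3 and 3.41 in roots, against 5.86, 6.02 and 6.27 in rosettes. Both differed by -3.05 on average, and no root array of these 4 genes reached its rosette range. UGT73C6, known to glucosylate flavonols and brassinosteroids, had 1.82, 2.09 and 2.26 in roots at feature 13401669, against 4.06, 4.42 and 4.93 in rosettes, a mean difference of -2.38. UGT84A3, which makes glucose esters of hydroxycinnamates, had 1.63, 1.89 and 2.12 in roots, against 3.61, 3.74 and 4.04 in rosettes, a mean difference of -1.89. For the 12 features named for organ the adjusted p of limma lay between 3.8e-19 and 2.8e-11 over the 4 organ comparisons. In the organ where it was lower, each of the 12 averaged below the array medians. The size of these differences thus rests in part on signal that may be near background.

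Grouped by the molecule that each enzyme is known for, the genes linked to salicylate and defence (UGT71C3, UGT74F1 and UGT76B1) were 3 of 3 measured, of 5 symbols listed, higher in roots in every comparison, by 1.51 to 5.57 on average. UGT76D1, named above for acids made from salicylate, is not on this list. Of all features 35% were higher and 15.7% lower in all 4 comparisons. Of the 6 phenylpropanoid features measured, for 9 symbols listed (UGT71C1, UGT72E1, UGT72E2, UGT72E3, UGT84A3 and UGT84A4), 5 passed as higher and 1, UGT84A3, as lower in all 4 comparisons, with UGT72E1 at 0.46 losing the call after rescaling. Of 4 features on a list of stress and foreign compounds (UGT73B3, UGT73B4, UGT73B5 and UGT73C1), 1 was apart between organs, UGT73B5. UGT80B1, which glucosylates sterols, averaged 5.2 in roots and 6.29 in rosettes.

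Of the lists of hormones and flavonoids, only that of abscisic acid held features apart in both directions, and no list was tested against another. Apart between organs were 44.9% of all features. The 4 auxin features (UGT74D1 with 2, UGT84B1 and UGT84B2) overlapped and had mean differences between -0.18 and 0.22. The 3 cytokinin features (UGT73C1, UGT76C1 and UGT76C2) overlapped too, with mean differences between -0.82 and -0.37, and UGT76C1, which N-glucosylates cytokinins, passed as lower in roots in all 4 comparisons. Of 4 abscisic acid features, UGT71C5 was higher by 0.97 and feature 13452433 of UGT71B6 lower by 1.48 in roots, while UGT71B8 and the other UGT71B6 feature overlapped. Of the 5 features on the flavonoid list, UGT78D1, UGT78D2 and UGT78D3 had mean differences of -0.14, -0.26 and 0.02, and feature 13401669 of UGT73C6 was the one apart between organs. The list does not hold UGT76E11, which can glucosylate flavonoids too and was lower in all root arrays, by 3.27 on average. The brassinosteroid list was measured by the 2 features of UGT73C6, at -2.38 and -0.52, of which the first was apart. After centring, several of these small negative differences passed as lower in roots, among them UGT78D1, UGT76C2 and feature 13415587 of UGT74D1 in all 4 comparisons.

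Of 12 subfamilies with 2 or more features, 4 held features apart in both directions (UGT71C, UGT73B, UGT84A and UGT85A), and in 4 all features overlapped (UGT74D, UGT76C, UGT78D and UGT84B). Among all features 44.9% were apart between organs (30.9% higher and 14.1% lower in roots), and the subfamilies were not tested against these shares. All 5 UGT71C features were apart between organs, with UGT71C1, UGT71C2, UGT71C3 and UGT71C5 higher in roots and UGT71C4 lower. The 3 UGT72E features passed as higher in roots in all 4 comparisons as deposited, UGT72E1 losing this after rescaling. UGT76E had 3 features that passed as lower in all 4 (UGT76E1, UGT76E11 and feature 13456831 of UGT76E12), while UGT76E2 passed in none. UGT85A had 1 feature higher, 2 lower and 3 overlapping. The higher one is feature 13360606 of UGT85A4, while that gene's feature 13388908 averaged -0.52 and passed as lower in 3 of 4 comparisons.

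Many UGT genes lie side by side, and their organ differences were compared between neighbours. In the RefSeq gene table of TAIR10.1, 29 of the 50 genes fall into 12 groups with at most 1 other gene between neighbours, which gives 17 pairs. In 10 pairs both genes were of 1 kind, 7 with both overlapping between organs and 3 with both apart in the same direction, and in 3 pairs 1 gene was apart and its neighbour overlapped. In the remaining 4 pairs 1 gene was higher in all root arrays and its neighbour lower in all root arrays. These were UGT71C5 (0.97) beside UGT71C4 (-1.11), UGT71C4 beside UGT71C3 (1.56), UGT84A3 (-1.89) beside UGT84A4 (2.06), and UGT73D1 (1.92) with 1 gene between it and UGT73C7 (-1.64). How often other pairs of genes are opposed was not computed. Taken singly, 30.9% of all features were higher and 14.1% lower in all root arrays. All 4 pairs kept these directions under the 3 scalings. UGT71D1, UGT71C2 and UGT71C1, which are neighbours, were all higher in roots, by 1.97, 3.19 and 4.74. In the UGT85A group, UGT85A5 was lower by 3.05 and UGT85A3 by 0.76 in roots, while UGT85A7 and UGT85A2 differed by -0.08 and 0.05. UGT73B5 was higher in roots by 2.6, and its neighbour UGT73B4 averaged a difference of 0.05. Genes of such groups are similar in sequence, and whether a feature also reads a neighbour's transcript was not tested.

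**Figure D2:**
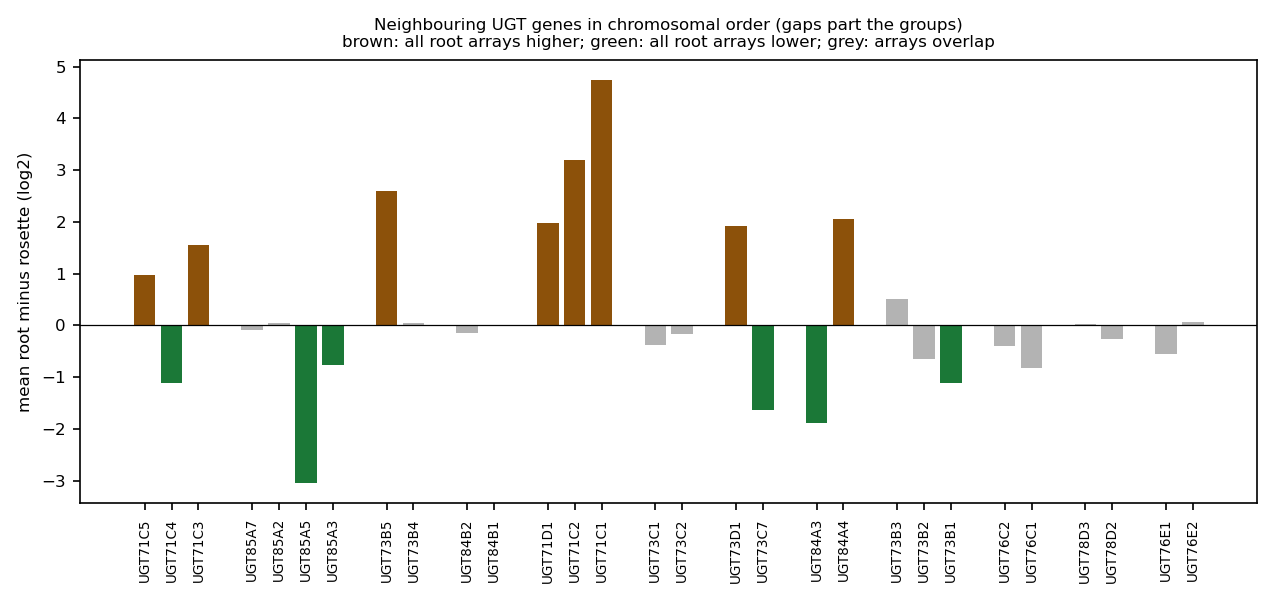
Mean log2 difference of root minus rosette for 29 UGT genes in 12 groups of neighbours, in chromosomal order. Brown bars mark genes with all 12 root arrays above all 12 rosette arrays, green bars the opposite and grey bars overlap. UGT71C4, UGT73C7 and UGT84A3 point down beside neighbours that point up.

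Features of 1 gene did not always match. For UGT76E12 the difference was 0.53 at feature 13436206 and -1.86 at feature 13456831, and for UGT85A4 it was 1.07 at feature 13360606 and -0.52 at feature 13388908. The mean was lower in roots at both features of UGT73C6 (-2.38 and -0.52) and of UGT71B6 (-1.48 and -0.32). The weaker ones, 13417804 of UGT73C6 and 13431572 of UGT71B6, overlapped between organs and passed in 2 and 1 of the 4 organ comparisons. For UGT74D1 the differences were 0.22 and -0.18. Which strand or part of a transcript each feature reads is not given in the sources used here.

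Differences of UGT genes by genotype and by sulfur supply were smaller than those by organ. Within an organ the range of the 4 group means of a feature had a median of 0.28 in roots and 0.31 in rosettes. It passed 1, a doubling, for a single feature, UGT73D1 in roots, at 1.14. Over the 8 comparisons of genotype or supply the median UGT difference lay between -0.01 and 0.06, against -0.02 to 0.02 for all features. In the per-organ fits 1 UGT feature passed between genotypes in nS rosettes, a lower one (1.82% of 55, beside 2.01% of all features, 1.08% lower). In the rosettes at dS 0 passed, beside 0.322%, and in roots 0 passed at nS and 0 at dS, beside 0.577% and 0.77%. At an unadjusted p under 0.05 there were 9 and 8 features in rosettes at nS and dS (16.4% and 14.5%, beside 14.3% and 10.4% of all features), and 7 and 8 in roots (12.7% and 14.5%, beside 9.23% and 10.8%). Between supplies 1 feature passed in rpt2-3a rosettes, a lower one, beside 1.55% (0.686% lower), and 0 in Col-0 rosettes, rpt2-3a roots and Col-0 roots, beside 0.129%, 0.143% and 0.875%. The unadjusted counts were 10, 7, 8 and 7 in that order (18.2%, 12.7%, 14.5% and 12.7%), beside 13%, 8.45%, 8.74% and 9.41% of all features.

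Arrays of both groups stood fully apart for 7.27% to 20% of UGT features, beside 12.7% to 18.3% of all features. Between genotypes 11 UGT features did not overlap in nS rosettes, 7 in dS rosettes, 4 in nS roots and 8 in dS roots, which is 20%, 12.7%, 7.27% and 14.5% of the 55. The shares of all features were 17.5%, 16.7%, 13.7% and 15.1%. Between supplies the counts were 8 in rpt2-3a rosettes, 7 in Col-0 rosettes, 5 in rpt2-3a roots and 6 in Col-0 roots. These are 14.5%, 12.7%, 9.09% and 10.9% of the 55, beside 18.3%, 12.7%, 14.7% and 12.7% of all features. The 95% interval of the difference lay wholly within 2-fold for 52 to 54 of the 55 features in each of these 8 comparisons, with a median half-width of 0.31.

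Each question was put to 2 separate sets of arrays, so the genotype difference averaged over both supplies, and the sulfur difference averaged over both genotypes, were added after the separate results had been seen. In these averages 1 UGT feature passed between genotypes in rosettes (lower, beside 1.46% of all features) and 2 in roots (higher, beside 1.58%). Between supplies 2 passed in rosettes (lower, beside 0.693%) and 1 in roots (higher, beside 1.06%). All 55 intervals then lay within 2-fold, with a median half-width of 0.22.

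**Figure D3:**
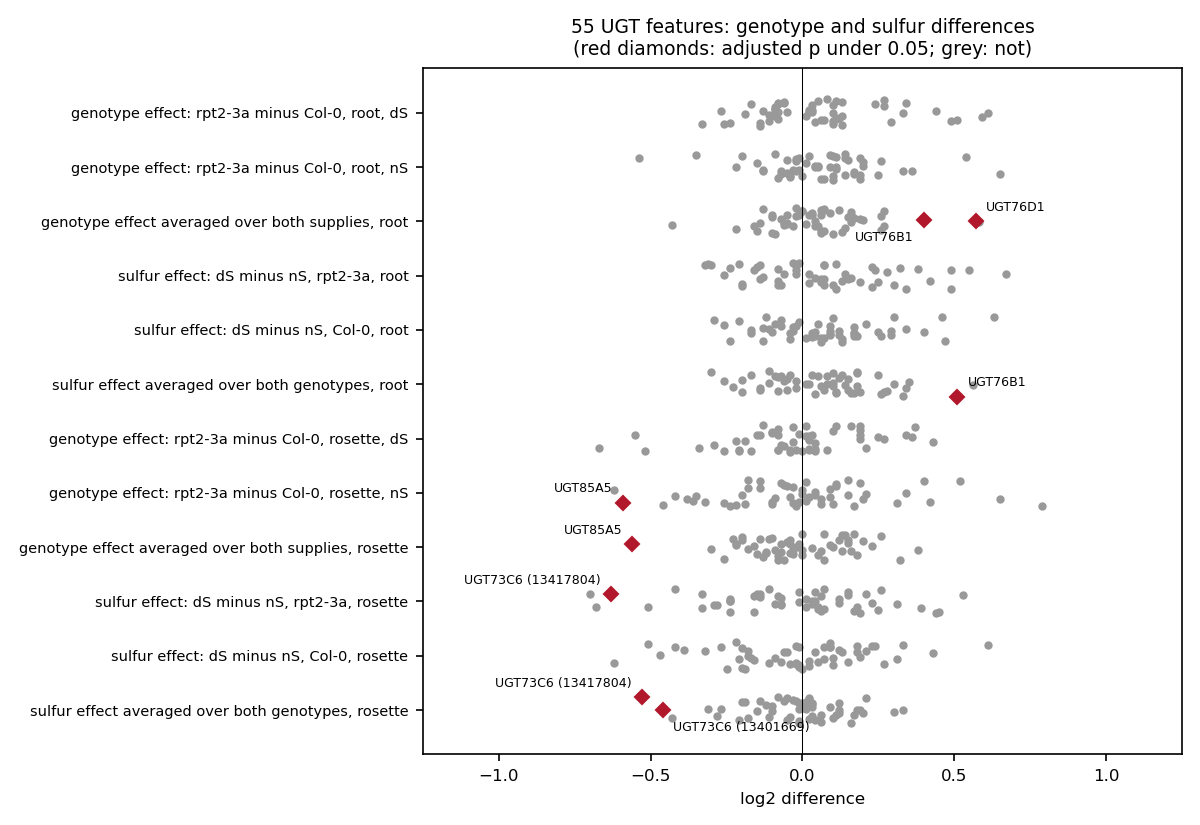
Log2 differences of the 55 UGT features in the 8 comparisons of genotype or sulfur supply and in the 4 averages, rpt2-3a minus Col-0 or dS minus nS. Red diamonds are features with an adjusted p under 0.05 in limma, with their names, and grey points are the others. Named points lie between -0.63 and 0.57.

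UGT85A5 was lower in rpt2-3a rosettes. At nS its values were 4.98, 4.85 and 5.25 in rpt2-3a, against 5.66, 5.54 and 5.66 in Col-0. The means were 5.03 ± 0.2 and 5.62 ± 0.07 (SD, 3 arrays each), a difference of -0.59 with an SE of 0.12, or 1.51-fold, and a limma adjusted p of 0.026. At dS the values were 4.89, 4.87 and 5.06 in rpt2-3a, against 5.61, 5.32 and 5.46 in Col-0, a difference of -0.52 with an SE of 0.12 that did not pass (adjusted p = 0.093). The mutant arrays lie below the Col-0 arrays at both supplies, and the comparisons share no arrays. Averaged over supplies the difference was -0.56 with an SE of 0.09, or 1.47-fold (adjusted p = 0.0042), and the 6 rpt2-3a arrays (4.85 to 5.25) did not reach the 6 Col-0 arrays (5.32 to 5.66). The nS call rested on single arrays: it held in 1 of 6 fits that left out an array, the one without rpt2-3a replicate 3, with adjusted p from 0.016 to 0.11, while the average held in 12 of 12. A fit of the 2 nS groups alone lost it too (adjusted p = 0.1). In roots UGT85A5 lay between 1.94 and 2.58 in all groups, and the genotype difference was not shown to differ between organs (root minus rosette 0.52, SE 0.19, adjusted p = 0.22 at nS and 0.45, SE 0.19, adjusted p = 0.43 at dS).

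UGT73C6 was lower in rosettes under sulfur deficiency. In rpt2-3a its feature 13417804 had 1.75, 2.08 and 1.76 at dS, against 2.25, 2.54 and 2.69 at nS. That is 1.86 ± 0.19 and 2.49 ± 0.22 (SD, 3 arrays each), a difference of -0.63 with an SE of 0.14, or 1.55-fold (limma adjusted p = 0.037). In Col-0 it had 2.02, 2.11 and 2.08 at dS, against 2.33, 2.68 and 2.47 at nS, a difference of -0.42 with an SE of 0.14 that did not pass (adjusted p = 0.36). The dS arrays were below the nS arrays in both genotypes, and the difference between the genotypes' responses was -0.21 with an SE of 0.19 (adjusted p = 0.79). Averaged over genotypes it was -0.53 with an SE of 0.1 (adjusted p = 0.016), with 1.75 to 2.11 at dS and 2.25 to 2.69 at nS. These values lie below the rosette array medians.

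The second UGT73C6 feature, 13401669, had 4.19, 4.06 and 4.3 at dS in rpt2-3a rosettes, against 4.72, 4.35 and 4.73 at nS. In Col-0 rosettes it had 4.19, 4.17 and 4.49 at dS, against 4.76, 4.93 and 4.69 at nS. The differences were -0.42 (adjusted p = 0.17) and -0.51 (adjusted p = 0.2), each with an SE of 0.13, and their average was -0.46 with an SE of 0.09, or 1.38-fold (adjusted p = 0.028). Its dS and nS arrays touch, at 4.06 to 4.49 and 4.35 to 4.93. Calls for UGT73C6 depended on single arrays. The rpt2-3a call of feature 13417804 held in 2 of 6 fits that left out an array, those without nS replicate 1 or dS replicate 2, and it was lost with quantile normalization (0.073), array weights (0.05034) and a fit of the 2 groups alone (0.099). Its average held in 11 of 12, failing at an adjusted p of 0.051 without rpt2-3a dS replicate 3. The average of feature 13401669 lost its call in 7 of 12, without Col-0 nS replicate 2, Col-0 dS replicate 1 or 2, rpt2-3a nS replicate 1 or 3 and rpt2-3a dS replicate 1 or 2, with adjusted p of 0.052 to 0.088, and it was barely under the threshold, at 0.04985, without Col-0 nS replicate 1. In roots both features stayed between 1.49 and 2.26.

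In roots UGT76B1 was higher under sulfur deficiency and, on average, in the mutant. Its values were 8.49, 8.61 and 8.45 in rpt2-3a dS roots, 7.73, 7.92 and 8.24 in rpt2-3a nS roots, 7.96, 8.2 and 8.07 in Col-0 dS roots and 7.61, 7.44 and 7.77 in Col-0 nS roots. In each genotype the dS arrays lay above the nS arrays, and at dS the mutant arrays lay above the Col-0 arrays. The sulfur difference was 0.55 in rpt2-3a (adjusted p = 0.15) and 0.47 in Col-0 (adjusted p = 0.19), each with an SE of 0.13, so neither passed alone. Their average was 0.51 with an SE of 0.1, or 1.43-fold (limma adjusted p = 0.013), and it passed in 12 of 12 fits that left out an array. With all 24 arrays in 1 fit it did not pass (adjusted p = 0.14).

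Between genotypes UGT76B1 in roots differed by 0.44 at dS (adjusted p = 0.19) and 0.36 at nS (adjusted p = 0.41), and by 0.4 on average (SE 0.1, adjusted p = 0.045). The average passed in 2 of 12 fits that left out an array, without Col-0 nS replicate 3 or rpt2-3a nS replicate 1, and its adjusted p was 0.066 with array weights, 0.052 with the replicate number as a block and 0.27 with all 24 arrays. In rosettes UGT76B1 lay between 1.95 and 3.05 with no passing difference. The sulfur response was not shown to differ between organs, at 0.79 with an SE of 0.33 in rpt2-3a (adjusted p = 0.38) and 0.4 with an SE of 0.33 in Col-0 (adjusted p = 0.79).

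UGT76D1 was higher in mutant roots on average. At dS it had 5.6, 5.89 and 5.47 in rpt2-3a, against 4.76, 5.23 and 5.13 in Col-0. At nS it had 5.12, 5.27 and 5.72 in rpt2-3a, against 4.95, 4.75 and 4.8 in Col-0. The mutant arrays were above the Col-0 arrays at each supply, by 0.61 at dS (adjusted p = 0.14) and 0.54 at nS (adjusted p = 0.27), each with an SE of 0.17. Their average was 0.57 with an SE of 0.12, or 1.49-fold (limma adjusted p = 0.022). It lost the call in 5 of 12 fits that left out an array, without Col-0 nS replicate 2 or 3, rpt2-3a nS replicate 3, Col-0 dS replicate 1 or rpt2-3a dS replicate 2, at adjusted p of 0.051 to 0.062. In rosettes its mean genotype difference was 0.03 with an SE of 0.08.

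**Figure D4:**
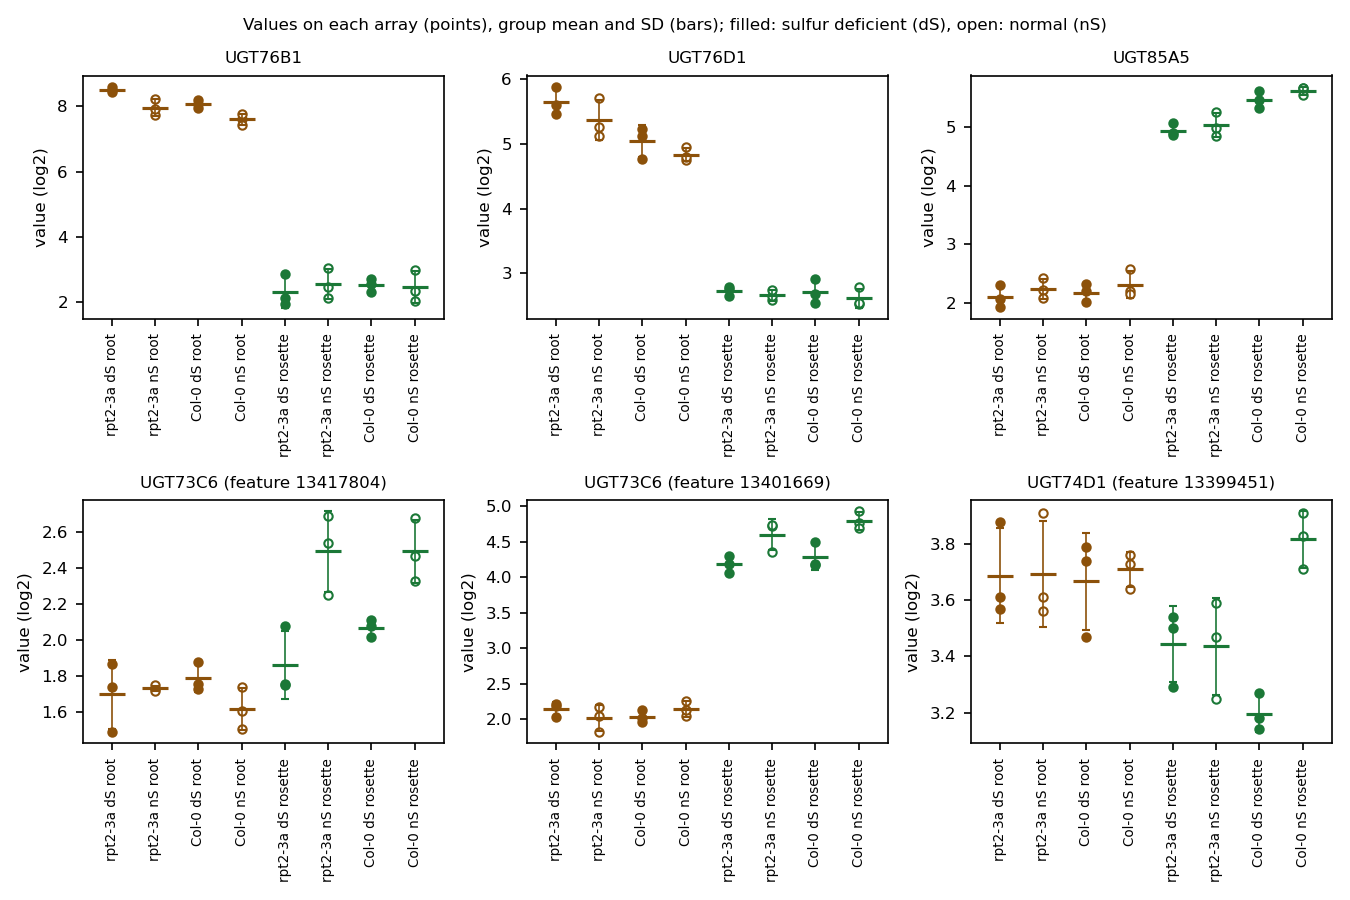
Log2 value of UGT76B1, UGT76D1, UGT85A5, both UGT73C6 features and 1 UGT74D1 feature on each array, by group. Points are arrays, filled at dS and open at nS, bars are the group mean and SD of 3 arrays, brown is root and green is rosette, and each panel has its own axis. UGT85A5 is lower in both rpt2-3a rosette groups than in both Col-0 rosette groups.

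Several UGT features were foremost in a comparison without passing it. UGT74D1, which conjugates auxin and related acids, had at feature 13399451 3.18, 3.27 and 3.14 in Col-0 dS rosettes, against 3.71, 3.83 and 3.91 in Col-0 nS rosettes (-0.62, SE 0.11, adjusted p = 0.06). In rpt2-3a rosettes it had 3.54, 3.29 and 3.5 at dS, against 3.47, 3.59 and 3.25 at nS. The difference between these responses was 0.63 with an SE of 0.16 (adjusted p = 0.24), and at the gene's other feature it was 0.47 with an SE of 0.22 (adjusted p = 0.55). UGT71B5 had 4.38, 4.63 and 4.41 in rpt2-3a dS roots and 4.2, 3.73 and 3.48 in rpt2-3a nS roots, against 3.82, 3.91 and 3.93 in Col-0 dS roots and 3.6, 4.03 and 3.93 in Col-0 nS roots. The 3 mutant arrays at dS are above all the others, with a sulfur difference of 0.67 in the mutant (SE 0.17, adjusted p = 0.16) and a difference between responses of 0.64 (SE 0.23, adjusted p = 0.86).

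UGT73D1, whose group means in roots spread most, had 5.05, 5.22 and 4.66 in rpt2-3a dS roots, 3.99, 4.84 and 4.64 in rpt2-3a nS roots, 4.18, 4.47 and 4.75 in Col-0 dS roots and 3.68, 3.61 and 4.22 in Col-0 nS roots. Arrays of all neighbouring groups overlap. Its average differences of 0.58 between genotypes (SE 0.16, adjusted p = 0.097) and 0.56 between supplies (SE 0.16, adjusted p = 0.13) are as large as those of UGT76D1 and UGT76B1, with a wider error. UGT85A2 had 7.19, 7.08 and 7.03 in Col-0 dS roots, against 6.45, 6.83 and 6.81 in Col-0 nS roots (0.4, SE 0.12, adjusted p = 0.21). UGT85A4 had at feature 13388908 4.53, 4.6 and 4.65 in rpt2-3a dS rosettes, against 4.06, 4.4 and 4.02 in Col-0 dS rosettes (0.43, SE 0.13, adjusted p = 0.22).

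No UGT feature passed a test of a difference between effects. Between genotypes the sulfur responses differed for 0 of 55 features in rosettes and 0 in roots, beside 0% and 0.0105% of all features, with 8 and 1 at an unadjusted p under 0.05 (14.5% and 1.82%, beside 9.27% and 5.45%). Between organs the genotype differences differed for 0 features at nS and 0 at dS, beside 1.32% and 0.465%, with 8 and 6 unadjusted (14.5% and 10.9%, beside 12.2% and 9.62%). Sulfur responses differed between organs for 0 features in rpt2-3a and 0 in Col-0, beside 0.399% and 0.469%, with 9 and 6 unadjusted (16.4% and 10.9%, beside 11% and 8.79%). With a median interval half-width of 0.44, between 44 and 53 of the 55 intervals lay within 2-fold, and for the others a difference over 2-fold stayed within the interval. The largest estimate, -1.32 between the genotypes' sulfur responses in rosettes, was that of UGT73C7, which was not named by rule. Its sulfur difference was -0.7 in rpt2-3a rosettes and 0.61 in Col-0 rosettes, each with an SE of 0.27 (limma adjusted p = 0.27 and 0.56).

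Foremost between organs were UGT73B4, UGT76E12, UGT76C1 and UGT74D1. UGT74D1 had at feature 13399451 a sulfur difference in Col-0 that was 0.58 apart between root and rosette (SE 0.17, adjusted p = 0.2). UGT73B4, a relative of UGT73B5 known for pathogen and oxidative stress response, had 3.22, 3.5 and 3.07 in rpt2-3a dS roots and 2.79, 3.14 and 2.4 in rpt2-3a nS roots. In rpt2-3a rosettes it had 2.95, 2.41 and 2.52 at dS and 3.32, 2.84 and 3.77 at nS. Its sulfur difference was 0.49 in mutant roots and -0.68 in mutant rosettes, and these differed by 1.17 with an SE of 0.32 (adjusted p = 0.11). It was the 1 UGT feature that passed organ comparisons in both directions, lower in mutant roots at nS (-0.53, SE 0.23, adjusted p = 0.045) and higher at dS (0.64, SE 0.23, adjusted p = 0.018). The dS call was lost with centred arrays (0.22, adjusted p = 0.39) and with quantile normalization (0.35, adjusted p = 0.21), while the nS call stayed.

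UGT76E12 had at feature 13456831 2.23, 2.04 and 2.4 in rpt2-3a dS roots, against 1.88, 1.78 and 2.03 in Col-0 dS roots, and 3.65, 3.91 and 3.26 in rpt2-3a dS rosettes, against 3.77, 4.44 and 4.25 in Col-0 dS rosettes. The genotype differences of 0.33 in roots and -0.55 in rosettes were 0.87 apart (SE 0.26, adjusted p = 0.17). UGT76C1 had 4.85, 5.04 and 5.09 in rpt2-3a nS rosettes, against 5.73, 5.54 and 5.57 in Col-0 nS rosettes (-0.62, SE 0.15, adjusted p = 0.059), and 4.44, 4.92 and 4.39 in rpt2-3a nS roots, against 4.52, 4.54 and 4.56 in Col-0 nS roots. The mutant rosettes at nS lie below Col-0 while the root arrays overlap, and the difference between organs was 0.66 with an SE of 0.22 (adjusted p = 0.16). UGT73B5 in rosettes had 2.91, 3.32 and 3.09 in rpt2-3a dS, 4.06, 3.34 and 3.45 in rpt2-3a nS, 3.05, 3.4 and 3.31 in Col-0 dS and 2.51, 2.81 and 3.15 in Col-0 nS. It was named for the widest spread of rosette group means after its values were seen, and its genotype difference at nS was 0.79 with an SE of 0.2 (adjusted p = 0.066).

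By role, the lists of UGT genes held few calls for genotype or supply. Over the 8 comparisons the 3 salicylate and defence features, 4 auxin, 3 cytokinin, 4 abscisic acid, 6 phenylpropanoid, 4 stress and 1 sterol feature had 0 calls in either direction. The 5 flavonoid features and the 2 brassinosteroid features had 1 call, lower, which is the same UGT73C6 feature on both lists. In each comparison 0.129% to 2.01% of all features passed. At such shares lists of 1 to 6 features would hold few calls, so these counts say little about the roles. List medians lay between -0.52 (brassinosteroid, 2 features of 1 gene) and 0.36 (stress).

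Of the UGT genes left out, UGT74C1, which makes glucosinolates, was lower at dS by 0.47 in roots (SE 0.1, adjusted p = 0.029) and by 0.39 in rosettes (SE 0.08, adjusted p = 0.028) in the average over genotypes. No separate sulfur difference of UGT74C1 passed in limma. In roots it was -0.62 in Col-0 (adjusted p = 0.065) and -0.32 in rpt2-3a (adjusted p = 0.54). In rosettes it was -0.62 in Col-0 (adjusted p = 0.056) and -0.16 in rpt2-3a (adjusted p = 0.6). UGT74B1, UGT75C1 and UGT79B1 passed none of the genotype or sulfur comparisons.

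Among other genes of detoxification and sugar transfer, 14 glutathione S-transferase features and 22 beta-glucosidase features were measured, and 1 of 38 listed genes of UDP-sugar supply (USP). Glutathione S-transferases conjugate glutathione to reactive compounds, and beta-glucosidases can remove the sugar that a UGT adds. Between roots and rosettes 5 to 6 glutathione S-transferase features were higher and 4 lower, and 7 to 9 beta-glucosidase features were higher and 6 lower, beside 41.8% to 43.9% of all features higher and 19.8% to 20.1% lower. Summed over the 8 comparisons of genotype or supply, the glutathione S-transferase features had 1 call higher and 2 lower, and the beta-glucosidase features 2 higher and 3 lower. In each of the 8 comparisons 0.129% to 2.01% of all features passed, and the lists were not tested against that share. USP passed no comparison of genotype or supply, and it was higher in roots in 3 of 4 organ comparisons.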

How the data were processed

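Labelled RNA of roots and rosettes was hybridised to Affymetrix arrays, per the labels' protocols. The authors deposited 1 processed value per feature and array, with 2 decimals, and these deposited values were read as log2 from their range. Which log base, summarisation and normalization they used is not given in the sources used here. Per the submitters' processing notes, Transcriptome Analysis Console was used, with no version named. Depth has no meaning for arrays, and 3 arrays per group limit the precision.

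No rescaling or filter was applied. Genotype and sulfur differences were tested with limma 3.58.1 in R 4.3.3 on the 12 arrays of each organ (8 residual degrees of freedom), and organ differences and differences between organs on all 24 arrays (16). P-values are two-sided and adjusted by Benjamini-Hochberg over 28583 features, with 0.05 as threshold. There were 18 comparisons, and 4 averages were added after the separate results were seen. The fits were tested on simulated data.

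Features named by rule were those that passed a comparison of genotype or supply, or the 2 with the smallest p where none did. The one with the smallest p for each difference of effects was named too. For organ the 6 highest and 6 lowest among those that passed in all 4 were named, by lowest, median and highest value. UGT73B5 was given on each rosette array after its values were seen. The members and gene lists were chosen with earlier results of these data known, and the UGT gene lists by role are background knowledge. Alternatives were centring, quantile normalization, leaving out dim features, trended robust variance, array weights, the replicate number as a block, other sets of arrays in the fit, and leaving out each array. Gene symbols come from the platform's table and loci from the RefSeq gene table of TAIR10.1. Sequences were not used here.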

Additional observations from a re-analysis of the deposited data

How the results depend on the processing

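With centred arrays the organ differences of UGT72E1 in rpt2-3a nS and Col-0 dS turned from 0.4 and 0.39 to -0.03 and -0.04, and that of UGT73B3 in Col-0 dS from 0.4 to -0.04, none of them past the threshold after centring. No difference for which a feature was named by the rule changed sign under the alternatives. Of the UGT counts for genotype in nS rosettes (1 as reported), quantile normalization and leaving out dim features gave 2, trended robust variance and all 24 arrays in 1 fit gave 3, and a fit of the 2 groups alone gave 0; in dS rosettes (0) leaving out dim features gave 1. For sulfur in rpt2-3a rosettes (1), quantile normalization, leaving out dim features, array weights and the 2 groups alone each gave 0. All 24 arrays in 1 fit gave 1 for sulfur in Col-0 rosettes and 1 for genotype in dS roots, and trended robust variance gave 1 for sulfur in rpt2-3a roots, each 0 as reported. Leaving out dim features kept 13 UGT features in the organ fit, of which 11, 10, 11 and 10 passed in rpt2-3a nS, rpt2-3a dS, Col-0 nS and Col-0 dS, in place of 41, 36, 40 and 37, because fewer were tested. It also gave 1 in place of 2 for the average sulfur difference in rosettes, and array weights gave 1 in place of 2 for the average genotype difference in roots. Apart from the dim features, the cause was not tested. Leaving out single arrays gave 0 to 1 for genotype in nS rosettes, 0 to 1 for sulfur in rpt2-3a rosettes, 1 to 3 for the average sulfur difference in rosettes, 0 to 3 for the average genotype difference in roots and 1 to 2 for the average sulfur difference in roots. The organ counts then ranged over 37 to 41, 36 to 38, 40 to 43 and 35 to 38. Replicate numbers were not taken as pairs. Deviations of same-numbered arrays correlated above 0.1 in 4 of 36 pairs within an organ and in 5 of 48 between organs. Among the former were 0.242 and 0.139 between Col-0 nS and dS rosettes and 0.153 between rpt2-3a nS and dS roots. Whether replicates were shared between supplies was not tested. With the replicate number as a block 1 UGT feature passed in place of 2 for the average genotype difference in roots, and the other counts were the same. For named features 913 of the alternative values kept their side of the threshold, 40 lost and 4 gained a call. These counts pool organ calls, which all held, with features that did not pass as reported, so every loss fell on a call for genotype or supply. The average genotype difference of UGT85A5 in rosettes held in 7 of 7 alternatives and in 12 of 12 fits that left out an array. That of UGT76B1 in roots held in 4 of 7 and 2 of 12. Features near background limit every small difference, and no detection measure was used here.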
